A study of Mus musculus with 10 samples.

Results

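The genes described here encode the proteins that start inflammasome assembly: the sensors Nlrp3, Nlrp1b, Nlrc4, Aim2 and Mefv, the ligand-binding receptors Naip2 and Naip5, the adaptor Pycard, and the regulators Nek7 and Txnip. They were taken by name from the table of gene read counts, in a list drawn up with earlier results of these data known. All 10 were found among the 29700 rows left after circular RNAs were set aside from 39488, and all 10 were among the 12654 genes with enough counts to be tested. Peritoneal macrophages were collected from 8-week-old wild-type C57BL/6 mice on the third day after thioglycollate, an irritant broth that draws monocyte-derived macrophages into the peritoneal cavity. The control group held 5 biological replicates labelled untreated. The ox-LDL group held 5 replicates primed with LPS (100 ng/ml), the bacterial endotoxin, and then stimulated for 16 h with ox-LDL (100 µg/ml), the oxidized lipoprotein that macrophages take up in plaques. By these labels no group received only LPS or only ox-LDL, and the effects of the 2 agents then cannot be told apart. A protocol field shared by all samples names ox-LDL for the controls too, and whether the control cells were also primed is not settled by the sources. The per-sample treatment labels were followed here.

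Totals ran from 20094647 to 20687289 estimated counts in the control libraries and from 19257131 to 20358017 in the ox-LDL libraries. All 7 macrophage markers were detected, with a summed level of 23065 to 42749 CPM on library totals (library CPM, counts scaled to a common library size) in control and 12988 to 28177 in ox-LDL libraries. Most of this sum was Lyz2 (median 23900 and 9674), whereas Adgre1, which encodes F4/80, was at 179 to 344 library CPM in control and 408 to 1961 in ox-LDL libraries. All 8 genes of an LPS-inducible list, written with earlier results of these data known, were upregulated in the ox-LDL group, against 9.40% of all genes. With no filter on low counts 5 were called. With at least 10 counts in every library 5 were also called, but that filter left genes such as Nos2 and Il6 untested. Nos2 had 0 to 2 counts in control replicates 1 to 4, and Il6 had a control mean of 0.0457 CPM (TMM-normalized). The neutrophil markers summed to 59.8 to 135 library CPM in control and 78.6 to 199 in ox-LDL libraries, with the highest sum of each group in its replicate 5. Of the 7 matched neutrophil genes, Csf3r reached 101 library CPM in control and 139 in ox-LDL libraries, S100a8 had a median of 11.8 and 54.6, and Mmp8 of 19.5 and 9.93, while S100a9 and Cxcr2 stayed below 1 and the precursor genes Elane and Mpo had at most 3 counts in every library. Stromal and mesothelial markers summed to 5.13 to 24.1 library CPM in control and 11.9 to 81.8 in ox-LDL libraries, and resident peritoneal macrophage markers to at most 9.90 in any library. Eosinophil and mast cell markers did not overlap, at 2.91 to 7.96 library CPM in control and 0.47 to 1.90 in ox-LDL libraries, mostly through Siglecf (2.51 to 6.68 and 0.261 to 0.621). B cell, T cell and dendritic cell markers each summed to at most 4.00 library CPM. The part of these other cells in the results below was not tested. Some libraries stood apart. Control replicate 5 held 387 counts of Il1b, 144 of Nos2 and 858 of Acod1, against at most 8, 2 and 94 in the other controls. Ox-LDL replicate 2 had a normalization factor of 0.593, against 0.837 to 1.19 in the rest of its group. Its deviations fell with gene length (Spearman rho = -0.56 across 12215 genes), as they did in control replicates 1 and 4 (-0.44 and -0.37). Deviations rose with length in ox-LDL replicates 1, 3 and 4 (0.42, 0.41 and 0.42), and less so in the remaining libraries (0.12 to 0.19). Results that rest on control replicate 5 or ox-LDL replicate 2 are given with and without that library where the value or call changes. In bulk RNA, a smaller share of cells that express a gene and less RNA per cell cannot be told apart.

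Inflammasomes are cytosolic platforms that activate caspase-1, which cuts pro-IL-1β, pro-IL-18 and gasdermin D and so drives pyroptosis. Each sensor answers to its own class of signal: Nlrp3 to potassium efflux and crystals, Aim2 to cytosolic DNA, Nlrp1b to proteolytic cleavage, pyrin (the product of Mefv) to loss of RhoA activity, and Nlrc4 to flagellin and type III secretion proteins captured by the Naip receptors. Pycard, also called ASC, joins the sensors that carry a pyrin domain to caspase-1. Nlrp3 is known for being kept low in resting macrophages and induced by a priming signal before it can be activated. Cholesterol crystals formed from ox-LDL are a known activating signal.

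RefSeq promoter windows (GRCm38.p6, 250 bases before to 50 bases after a start site) were matched for all 10 genes, as 12 windows. The sequences shown are those of Nlrp3, of the Naip2 and Naip5 pair, whose transcripts share part of their sequence with each other and with other Naip genes, and of Txnip. Nlrp3 has annotated start sites close to each other. Capitals mark a purine-rich PU.1-type match (GAGGAA or its reverse complement TTCCTC) in the window at chr11:59542436-59542735 and a match to the kappaB consensus in the window at chr11:59541319-59541618, both on the plus strand.
Nlrp3, window with purine-rich matches: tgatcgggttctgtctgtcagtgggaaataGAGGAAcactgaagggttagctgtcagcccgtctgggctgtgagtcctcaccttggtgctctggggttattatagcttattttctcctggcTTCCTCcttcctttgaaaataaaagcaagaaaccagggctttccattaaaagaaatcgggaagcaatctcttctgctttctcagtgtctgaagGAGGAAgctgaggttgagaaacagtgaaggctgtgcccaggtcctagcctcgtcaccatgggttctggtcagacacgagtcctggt
Nlrp3, window with a kappaB match: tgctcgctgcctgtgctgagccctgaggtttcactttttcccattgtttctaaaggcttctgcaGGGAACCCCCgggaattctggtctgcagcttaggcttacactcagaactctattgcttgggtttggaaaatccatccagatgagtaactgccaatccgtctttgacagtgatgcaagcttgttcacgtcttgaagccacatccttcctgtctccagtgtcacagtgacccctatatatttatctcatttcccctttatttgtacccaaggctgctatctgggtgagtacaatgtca
The letters GAGGAA on either strand occurred in 28.3% of all 32851 windows and the kappaB consensus in 8.46%. Among the 10 genes the purine-rich match was found in windows of Nlrp3, Nlrp1b, Aim2 and Pycard, and the kappaB match in windows of Nlrp3 and Naip5. None held the interferon-response letters, GAAA and GAAA separated by 2 bases of any kind (3.44% of all windows) or the AP-1 letters TGANTCA (7.81%), searched on both strands. A match is a string of letters and was not tested as a binding site.

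Naip2 and Naip5 are neighbouring genes on chromosome 13. A stretch of 134 bases in their promoter windows, at chr13:100202074-100202207 for Naip2 and chr13:100247295-100247428 for Naip5 and both on the minus strand, was identical at 123 bases (91.8%), and capitals mark the 11 bases that differ.
Naip2: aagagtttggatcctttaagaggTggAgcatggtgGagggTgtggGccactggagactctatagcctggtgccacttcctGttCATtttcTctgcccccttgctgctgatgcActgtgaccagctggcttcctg
Naip5: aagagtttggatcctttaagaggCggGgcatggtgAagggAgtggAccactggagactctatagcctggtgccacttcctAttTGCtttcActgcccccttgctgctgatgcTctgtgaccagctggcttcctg
The window of Txnip holds CACGAG in tandem, shown in capitals at chr3:96557852-96557908 on the plus strand. These are the E-box-like letters of the element through which glucose controls this gene.
Txnip: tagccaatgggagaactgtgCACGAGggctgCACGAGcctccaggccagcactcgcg
The letters CACGAG on either strand occurred in 6.47% of all windows, those of Mefv and Nlrp3 included, whereas the tandem with the spacing found in Txnip occurred in 1 window, that of Txnip. The spacing searched was taken from Txnip itself.

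In the comparison of ox-LDL with control libraries, 3 of the 10 genes were upregulated (Mefv, Nlrp3 and Naip2), 1 was downregulated (Txnip) and 6 did not pass an adjusted p of 0.01 (edgeR's quasi-likelihood test, Benjamini-Hochberg adjustment over all genes). The same fit called 14.7% of all genes, 9.40% as higher and 5.35% as lower. Without control replicate 5 and ox-LDL replicate 2, a setting added after seeing the data, 3 genes were called higher and 2 lower, Txnip and the adaptor Pycard. That setting also called more of all genes, 1843 higher and 1483 lower of 12858, against 1189 and 677 of 12654 in the main fit. With an absolute log2 fold change above 2 as a further limit, Mefv and Nlrp3 were called, both higher, against 6.71% of all genes (4.78% higher and 1.93% lower). The median log2 fold change was -0.31 over the 10 genes and 0.10 over all genes. In TMM-normalized CPM (scaled for library composition), the levels of the groups did not overlap for 6 of the 10 genes, against 20.7% of all genes. In FPKM, a level per length, Nlrp3, Nlrp1b and Mefv stayed apart, whereas the groups overlapped for Naip2, Nlrc4 and Nek7. The sensors thus did not move as a group.

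**Figure D1:**
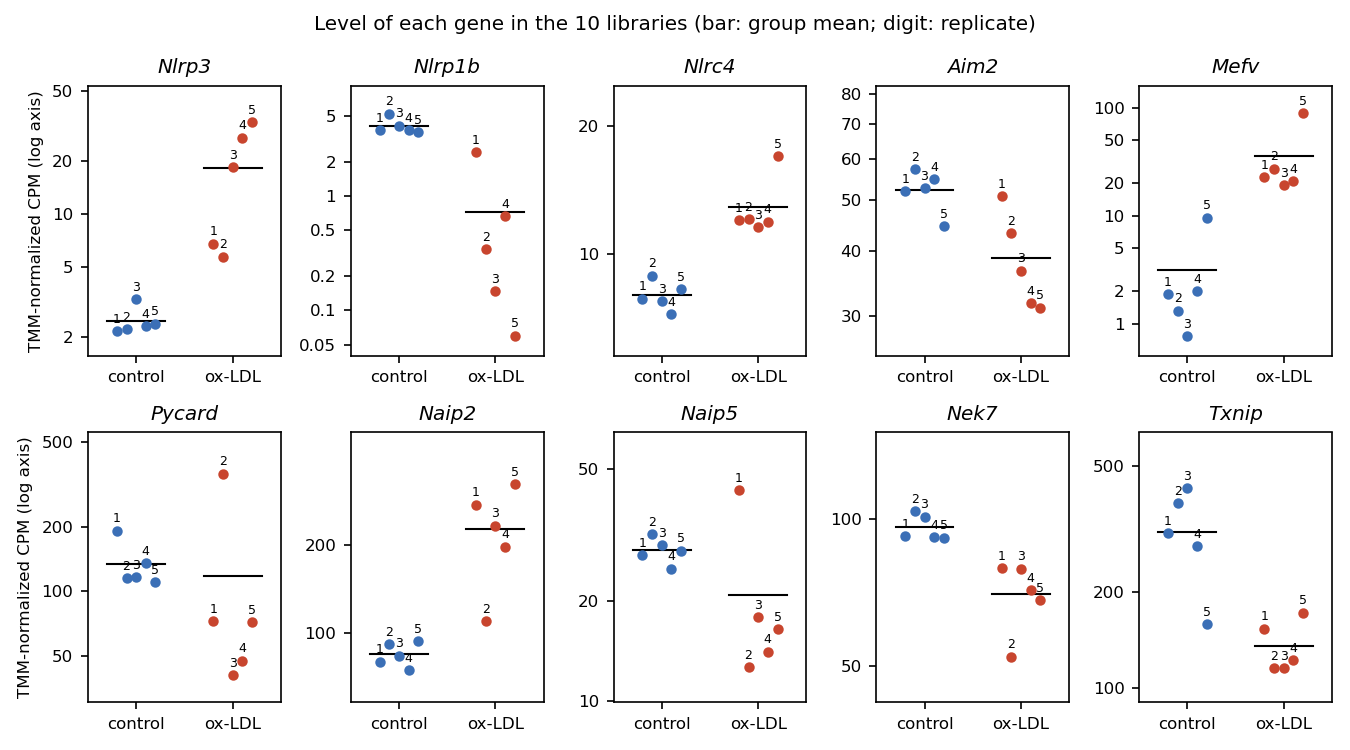
Level of each of the 10 genes in the 5 control and 5 ox-LDL libraries, in TMM-normalized CPM on a log axis; each point is a library with its replicate number, and the bar is the group mean. The groups do not overlap for Nlrp3, Nlrp1b, Nlrc4, Mefv, Naip2 and Nek7, and ox-LDL replicate 2 stands at 355 for Pycard.

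Nlrp3 (chromosome 11, 59355070 to 59380458, plus strand, mm9), the sensor of crystals and ion fluxes, stood at 2.16, 2.23, 3.29, 2.32 and 2.39 CPM (here and below TMM-normalized, a scaling that allows for differences in library composition) in control replicates 1 to 5. In ox-LDL replicates 1 to 5 it stood at 6.78, 5.74, 18.4, 27.1 and 33.2 CPM. Every ox-LDL library lay above every control library, with replicates 1 and 2 well below the other three of their group. The mean was 2.48 ± 0.466 CPM in control and 18.2 ± 12.2 in ox-LDL libraries (SD, n = 5 each). This was a 7.35-fold increase (log2 fold change 2.88, SE 0.47, adjusted p = 0.000899, edgeR), called under each of the 20 alternatives run, with 1.44 the smallest value (limma on log2(FPKM + 1)). The deposited FPKM gave levels per length of 0.870 ± 0.172 in control and 4.76 ± 2.98 in ox-LDL libraries (n = 5 each). The length implied by counts and FPKM was 2038, 2217 and 2575 bases in control replicates 1 and 4 and ox-LDL replicate 2, and 3727 to 3809 bases in the other libraries, so the 2 scales differ for these 3.

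Mefv (chromosome 16, 3707215 to 3718124, minus strand, mm9), which encodes pyrin, had the largest rise of the 10 genes. Its control levels were 1.88, 1.33, 0.770, 2.01 and 9.64 CPM in replicates 1 to 5, and its ox-LDL levels were 23.0, 27.4, 19.3, 20.9 and 89.6 CPM. Replicate 5 was the highest library in each group, and the groups did not overlap. The fitted increase was 11.5-fold (log2 fold change 3.52, SE 0.72, adjusted p = 0.00363, edgeR). Leaving out control replicate 5 lowered the control mean from 3.1 ± 3.7 (n = 5) to 1.5 ± 0.57 CPM (n = 4) and raised the log2 fold change to 4.59. The call was lost without control replicate 1, 2 or 4 (adjusted p = 0.0128, 0.0114 and 0.0129). In control replicate 5 the counts of Mefv were 222, against 18 to 39 in the other controls, an excess equal to 12.7% of its level in ox-LDL replicate 5, whereas for Il1b, Nos2 and Acod1 the excess was 0.772%, 0.730% and 0.778%. The summed neutrophil markers were also highest in these libraries, at 135 and 199 library CPM. Over the libraries of each group, Csf3r reached 101 in control and 139 in ox-LDL, S100a8 13.0 and 90.2, and Mmp8 37.1 and 10.7. S100a9, Cxcr2, Elane and Mpo stayed below 1 in every library. The part of neutrophils in the level of Mefv, which they express too, was not tested.

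Aim2 (chromosome 1, 175281010 to 175396171, plus strand, mm9), the DNA sensor, was detected at 51.9, 57.3, 52.7, 54.8 and 44.5 CPM in the controls and at 50.9, 43.2, 36.6, 31.7 and 31.1 CPM in the ox-LDL libraries. In 4 of the 5 ox-LDL libraries it was below every control, while replicate 1 lay among the controls. The log2 fold change was -0.43 (SE 0.18, adjusted p = 0.0902, edgeR), and no alternative called it at 0.01. The exact two-sided permutation test over 5 against 5 libraries gave p = 0.0159 before adjustment, with 0.00794 the smallest it can give.

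Nlrp1b (chromosome 11, 70966604 to 71044235, minus strand, mm9), a sensor held in check by its own amino-terminal part, was at 3.76, 5.26, 4.15, 3.76 and 3.65 CPM in the controls. In the ox-LDL libraries it was at 2.44, 0.343, 0.146, 0.670 and 0.0597 CPM, which in replicates 2, 3 and 5 is 4, 3 and 1 counts. Every ox-LDL library was below every control, and replicate 1 was the nearest. The log2 fold change was -2.43 (SE 0.68, adjusted p = 0.0207, edgeR), which did not pass 0.01. Without ox-LDL replicate 1 it was -3.71 with an adjusted p of 0.00048, and the group mean went from 0.731 ± 0.981 (n = 5) to 0.305 ± 0.271 CPM (n = 4). DESeq2 also called it (-2.52, adjusted p = 0.00086), as did the fit with the gene length trend removed (-2.66, adjusted p = 0.00734).

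**Figure D2:**
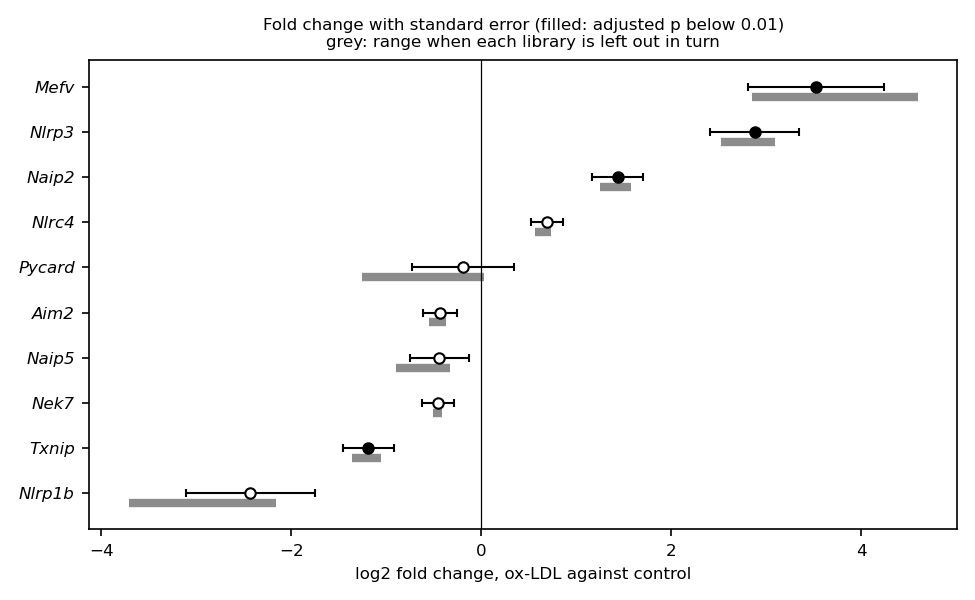
Log2 fold change of each of the 10 genes, ox-LDL against control, from edgeR, with black bars for the standard error and grey bars for the range when each library was left out in turn; filled points mark an adjusted p below 0.01. Mefv (3.52), Nlrp3 (2.88) and Naip2 (1.43) were called higher and Txnip (-1.19) lower.

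Naip2 and Naip5 (chromosome 13, 100914018 to 100972047 and 100981694 to 101016278, both minus strand, mm9) bind bacterial proteins and pass the signal to Nlrc4. Naip2, the receptor for the rod protein of type III secretion systems, was at 79.5, 91.5, 83.6, 74.4 and 93.8 CPM in the controls and at 276, 110, 234, 198 and 325 CPM in the ox-LDL libraries. In CPM all 5 ox-LDL libraries exceeded the controls, replicate 2 by the least. In FPKM replicate 2 stood at 13.9, below the control range of 15.6 to 23.2. It was upregulated 2.70-fold (log2 fold change 1.43, SE 0.26, adjusted p = 0.00196, edgeR). The call was lost when libraries were scaled by total count alone (1.31, adjusted p = 0.0183) or when limma was run on log2(FPKM + 1) (1.11, adjusted p = 0.0404).

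Naip5, a flagellin receptor, was at 27.6, 31.9, 29.6, 25.1 and 28.5 CPM in the controls and at 43.4, 12.7, 17.9, 14.1 and 16.5 CPM in the ox-LDL libraries. Replicate 1 lay above every control and the other 4 ox-LDL libraries below every control. With all libraries the log2 fold change was -0.44 (SE 0.31, adjusted p = 0.317, edgeR), and without ox-LDL replicate 1 it was -0.89 with an adjusted p of 0.00314. The ox-LDL mean was 20.9 ± 12.7 CPM (n = 5) with that library and 15.3 ± 2.37 CPM (n = 4) without it.

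Within a library, the ratio of Naip2 to Naip5 in FPKM was 3.03, 2.95, 2.90, 3.08 and 3.40 in control replicates 1 to 5 and 6.99, 9.08, 13.3, 14.6 and 20.9 in ox-LDL replicates 1 to 5. The groups did not overlap, and ox-LDL replicate 1 kept the highest Naip5 and the lowest ratio of its group. The ratio was 3.94-fold higher in the ox-LDL group (log2 difference 1.98, exact two-sided permutation p = 0.00794, the smallest this design can give, and 0.0238 adjusted over 3 ratios, below the 0.05 used for ratios). The log2 difference ran from 1.77 to 2.17 over its 12 alternatives. Of the 50-base stretches of their annotated transcripts, 32.7% of those of Naip5 and 18.2% of those of Naip2 also occurred in another gene, mostly other Naip genes, and how such reads were assigned is not stated. The Naip values are therefore uncertain to that extent. Of the related receptors, Naip6 stood at -0.92 (adjusted p = 0.0318) and Naip1 at 0.13 (adjusted p = 0.818) on the log2 fold change scale (edgeR), and neither was called.

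Nlrc4 (chromosome 17, 74825635 to 74858448, minus strand, mm9), the partner of the Naip receptors, was at 7.85, 8.90, 7.74, 7.21 and 8.25 CPM in the controls and at 12.0, 12.1, 11.6, 11.9 and 17.0 CPM in the ox-LDL libraries. The groups did not overlap, with 4 of the ox-LDL libraries close together and replicate 5 apart. The log2 fold change of 0.69 (SE 0.17) had an adjusted p of 0.0104 (edgeR), just past the limit. It was called without ox-LDL replicate 2 (0.67, adjusted p = 0.00827), with DESeq2 (0.68, adjusted p = 0.0011), with the gene length trend removed (0.72, adjusted p = 0.00298), and with at least 10 counts in every library or NCBI identifiers alone (adjusted p = 0.00995 and 0.00953). The exact two-sided permutation test gave p = 0.00794 in CPM before adjustment. In FPKM, where the mean was 4.91 ± 0.780 in control and 5.97 ± 2.00 in ox-LDL libraries (n = 5 each), the exact permutation p was 0.357. Limma on log2(FPKM + 1) gave a log2 fold change of 0.21 (adjusted p = 0.565). The length implied by dividing counts by FPKM differed between libraries for Nlrc4, from 753 bases in ox-LDL replicate 2 to 2986 in another ox-LDL library, so its FPKM and count comparisons are not alike.

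Pycard (chromosome 7, 135135617 to 135137381, minus strand, mm9), the adaptor, was at 192, 115, 116, 136 and 111 CPM in the controls. In the ox-LDL libraries it was at 72.6, 355, 40.4, 47.4 and 71.7 CPM. Replicate 2 was above every control and the other 4 were below every control. With all libraries the log2 fold change was -0.19 (SE 0.54, adjusted p = 0.832, edgeR). Without ox-LDL replicate 2 it was -1.25 with an adjusted p of 0.00175, and the ox-LDL mean was 58.0 ± 16.5 CPM (n = 4) against 117 ± 134 (n = 5). Without ox-LDL replicate 3 or 4 the value was 0.03 and 0.01, so its sign rested on single libraries. In ox-LDL replicate 2 the log2 difference of Pycard from the median of the other ox-LDL libraries was 2.60, whereas the median over 2746 genes of like length was -0.09. For Nlrp3 the same difference was -1.87, against -0.61 over 2731 genes of like length. Removing the gene length trend left Pycard at -0.15 (adjusted p = 0.855).

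The ratio of Nlrp3 to Pycard in FPKM, the balance of a sensor and its adaptor, was 0.0127, 0.0126, 0.0179, 0.0182 and 0.0138 in the controls and 0.0557, 0.0136, 0.263, 0.327 and 0.254 in the ox-LDL libraries. In 4 ox-LDL libraries it was above every control, while replicate 2 lay within the control range. It was 7.44-fold higher in the ox-LDL group (log2 difference 2.90, exact two-sided permutation p = 0.0317, 0.0476 adjusted over 3 ratios). The adjusted p rose to 0.0595 with CPM in place of FPKM, to 0.0714 with a pseudocount of 1, and to between 0.0595 and 0.0833 when any single control was left out. Without ox-LDL replicate 2 the log2 difference was 3.65 (exact permutation, adjusted p = 0.0119). The ratio of Aim2 to Pycard was 0.212 to 0.408 in control and 0.0956 to 0.714 in ox-LDL libraries, with a log2 difference of 0.18 (exact permutation p = 0.802, adjusted 0.802), which turned to -0.06 without ox-LDL replicate 3.

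**Figure D3:**
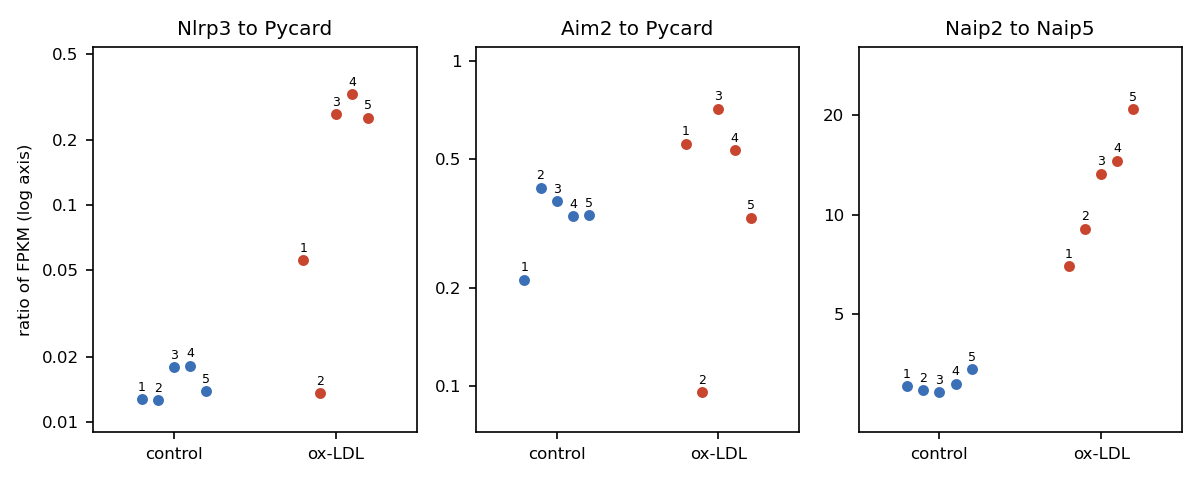
Ratios of FPKM within each library for Nlrp3 to Pycard, Aim2 to Pycard and Naip2 to Naip5, on a log axis, in the 5 control and 5 ox-LDL libraries, with the replicate number beside each point. Naip2 to Naip5 is 2.90 to 3.40 in control and 6.99 to 20.9 in ox-LDL libraries, and ox-LDL replicate 2 lies within the control range for Nlrp3 to Pycard.

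Nek7 (chromosome 1, 140381291 to 140516273, minus strand, mm9), the kinase that binds Nlrp3 during activation, was at 92.2, 104, 101, 91.8 and 91.6 CPM in the controls and at 79.3, 52.1, 79.2, 71.3 and 68.1 CPM in the ox-LDL libraries. The groups did not overlap in CPM, and replicate 2 was the lowest. In FPKM they overlapped, at 20.3 to 28.8 in control and 7.40 to 22.9 in ox-LDL libraries. The log2 fold change was -0.46 (SE 0.17, adjusted p = 0.0598, edgeR). DESeq2 called it (-0.47, adjusted p = 0.00169), and so did the fit with the gene length trend removed (-0.60, adjusted p = 0.00205).

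Txnip (chromosome 3, 96361880 to 96365806, plus strand, mm9), the thioredoxin-binding protein whose promoter element is shown above, was at 306, 380, 425, 279 and 158 CPM in the controls and at 153, 115, 115, 122 and 172 CPM in the ox-LDL libraries. In 4 of the 5 ox-LDL libraries it was below every control. The overlap came from control replicate 5, the lowest control, and ox-LDL replicate 5, the highest of its group. The gene was downregulated with a log2 fold change of -1.19 (SE 0.27, 2.28-fold, adjusted p = 0.00649, edgeR). The adjusted p rose above 0.01 when control replicate 1, 2, 3 or 4 or ox-LDL replicate 1, 3 or 4 was left out, reaching 0.0215 at most. Without control replicate 5 the control mean was 348 ± 67.1 (n = 4), against 310 ± 103 CPM with it (n = 5). An annotated gene on the opposite strand, Gm15441, covers the span of Txnip, and it had 1 to 12.7 counts a library. Whether the counting used strand is not stated.

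Levels of different genes were compared per length, in FPKM. In control libraries Txnip (125 ± 48.9) and Pycard (64.9 ± 9.93) had the highest means, followed by Nek7 (25.0 ± 3.91), Aim2 (21.0 ± 2.82) and Naip2 (19.6 ± 3.72; SD, n = 5 each). The order went on with Naip5 (6.34) and Nlrc4 (4.91), then Nlrp1b (0.998), Nlrp3 (0.870) and Mefv (1.14), ordered by the mean of log2(FPKM + 0.1). The steps from Aim2 to Naip2, from Nlrp1b to Nlrp3 and from Nlrp3 to Mefv were smaller than the spread of the difference between libraries, and the other steps were larger than it. In ox-LDL libraries the order was Txnip (48.9), Naip2 (48.7), Pycard (43.2), Nek7 (16.8), Aim2 (13.7), Mefv (10.9), Nlrc4 (5.97), Nlrp3 (4.76), Naip5 (4.25) and Nlrp1b (0.20), and the step from Naip5 to Nlrp1b was the only one larger than its spread.

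Summed over the 7 sensors, FPKM was 54.9 ± 8.02 in control and 88.5 ± 30.2 in ox-LDL libraries (SD, n = 5 each). In ox-LDL replicate 2 the sum was 41.25, below the control range of 43.99 to 62.6. In the other ox-LDL libraries it ran from 84.66 to 120.87. In control libraries Aim2 held 38.4 ± 3.33% of the sum and Naip2 35.7 ± 2.34%. In ox-LDL libraries Naip2 held 52.6 ± 10.9% and Aim2 16.4 ± 5.33%. Naip2 held 33.6% in ox-LDL replicate 2, within its control range of 32.2 to 38.8%. Without that library the ox-LDL mean of Naip2 was 57.3 ± 2.97% (n = 4). The share of Mefv was 2.02 ± 2.35% and 12.2 ± 6.55%, and that of Nlrp3 1.64 ± 0.502% and 5.38 ± 3.00%. Naip5 held 11.5% and 4.50%, Nlrc4 8.98% and 8.68%, and Nlrp1b 1.80% and 0.204%. In ox-LDL replicate 2, where its implied length was shortest, the share of Nlrc4 was 22.6%, and without that library the ox-LDL mean was 5.19 ± 0.963% (n = 4). The shares sum to a fixed total, so the rise of a sensor lowers the share of the rest, and they were not tested.

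**Figure D4:**
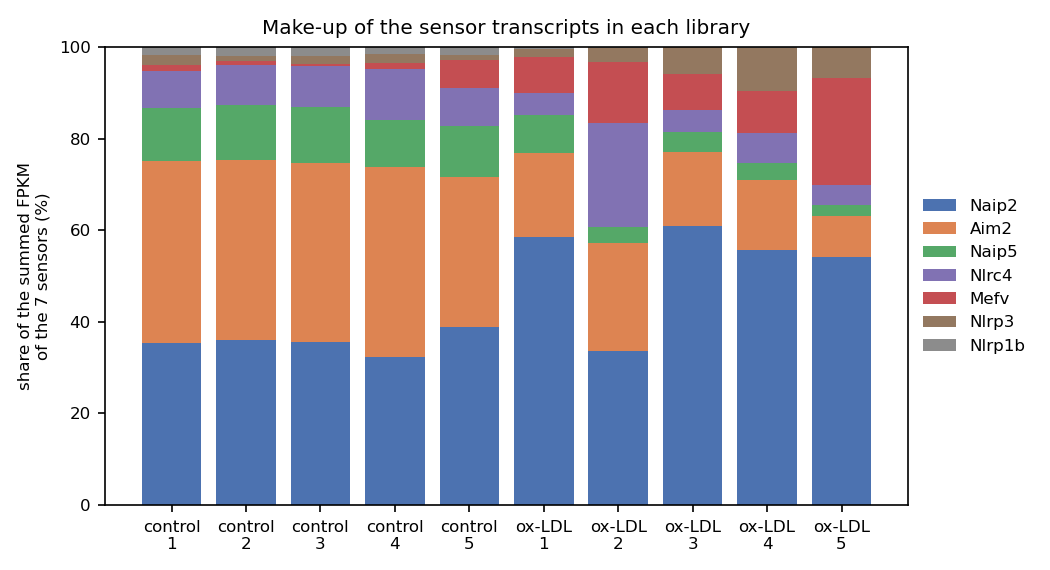
Share of each of the 7 sensors in their summed FPKM, in percent, as a stacked bar for each of the 10 libraries. Naip2 and Aim2 make up most of the control bars, and the mean share of Aim2 is 38.4% in control and 16.4% in ox-LDL libraries.

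Across the 10 libraries, the genes whose log2 level followed that of Nlrp3 most closely, among 7638 genes with a mean of at least 10 CPM, were Carmil1 (Pearson's r = 0.99), Wdr92 (0.99) and Tubb4b (0.99). For Mefv they were Ly9 (0.98), Slamf7 (0.98) and Socs3 (0.97), for Naip2 Ifih1 (0.99) and Ell2 (0.98), for Txnip Nsdhl (0.94), Maged2 (0.94) and Pak1 (0.93), and for Pycard Cuedc2, Tmem222 and Plgrkt (each 0.98). These correlations are descriptions over libraries that share their group difference. With the group means removed, the closest genes were Slc7a2 for Nlrp3 (0.97), Psen2 for Mefv (0.97), Stt3a for Naip2 (0.99), F7 for Txnip (0.93) and Rabepk for Pycard (0.99).

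Other genes of the pathway were read from lists written with earlier results of these data known. Of 9 effectors and cytokine substrates, 3 were upregulated, 1 was downregulated and 5 were not called, with a median log2 fold change of 1.03 against 0.10 over all genes. Casp4, the cytosolic LPS sensor caspase-11, was at 2.36 (adjusted p = 0.0017), Gsdmd, the pore former, at 1.22 (adjusted p = 0.0036) and Il1a at 4.34 (adjusted p = 0.000188), whereas Gsdme was at -2.27 (adjusted p = 0.00131, edgeR in each case). Il1b, at 7.46, had an adjusted p of 0.0179 and did not pass the limit, although the groups did not overlap, and Casp1, at 1.03, had an adjusted p of 0.017. Ninj1, which ruptures the membrane of dying cells, stood at 0.52 (adjusted p = 0.316, edgeR).

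Of 10 further cytosolic sensors tested from 12 listed, 4 were upregulated and 2 downregulated, with a median log2 fold change of 0.08. Those upregulated were Zbp1 (5.41), Nlrc5 (3.32), Nod1 (2.38) and Nod2 (1.45). Nlrp1a, the neighbour and relative of Nlrp1b, fell by 4.59 on the log2 scale (adjusted p = 0.000334) and Nlrp10 fell by 3.50 (adjusted p = 0.000239, edgeR in each case). Of the 50-base stretches of Nlrp1b, 1.34% also occurred in other Nlrp1 genes. In each list the counts stand beside the 9.40% of all genes called higher and 5.35% called lower.

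Of 20 regulators of assembly tested from 23 listed, 6 were upregulated, 2 downregulated and 12 not called, with a median of 0.57. The guanylate-binding proteins Gbp5 (7.95) and Gbp2 (6.52) and the transcription factor Irf1 (4.70) rose, as did the immunity-related GTPases Irgm1 (3.97) and Irgm2 (3.07) and the channel Panx1 (1.42), while the potassium channel Kcnk6 (-1.31) and the peptidase Dpp8 (-0.89), which restrains Nlrp1, fell. Rhoa, the GTPase whose inactivation pyrin senses, stood at -0.06 (adjusted p = 0.873) and the chaperone Hsp90ab1 at 0.63 (adjusted p = 0.161, edgeR in each case), and neither was called. Among 8 partners of Txnip tested from 9 listed, Arrdc4 (1.72, adjusted p = 0.00115), its arrestin-family relative with a like glucose response, and Txnrd1 (1.54, adjusted p = 0.00633), thioredoxin reductase, were upregulated and none was downregulated (edgeR, median 0.33). Thioredoxin itself, Txn1, was at 0.91 (adjusted p = 0.19), and Mlx, a partner of the factors that carry the glucose signal to the Txnip promoter, at 0.27 (adjusted p = 0.285, edgeR in each case).

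**Figure D5:**
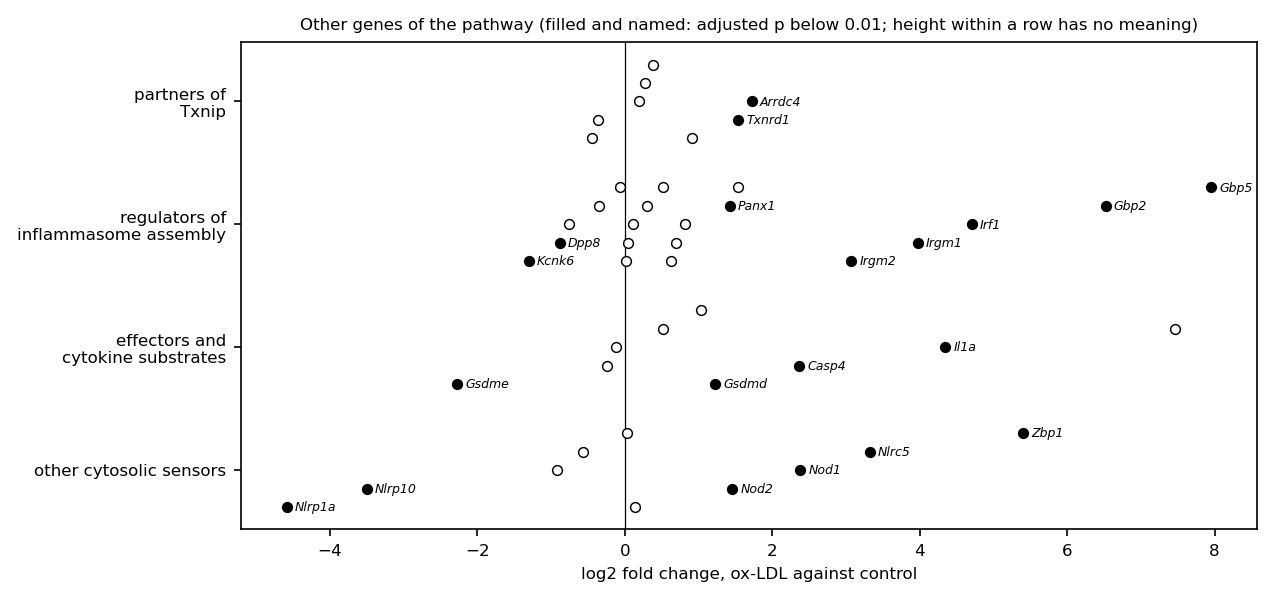
Log2 fold change of the tested genes of each pathway list, ox-LDL against control, on the horizontal axis and a row for each of 4 lists; filled and named points mark an adjusted p below 0.01. The points run from Nlrp1a at -4.59 to Gbp5 at 7.95.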

How the data were processed

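Total RNA of 10 cultures of peritoneal macrophages, 5 control and 5 ox-LDL, was sequenced on the BGISEQ-500 platform. Submitters' processing notes name HISAT2 2.0.5, SAMtools 1.4, StringTie 1.3.3.13 and the mm9 build. The authors deposited estimated counts per gene and, per library, a value whose unit is not named. Counts divided by these values gave near-constant lengths for most genes, so the deposited values were treated as FPKM. The counting step and its use of strand are not given in the sources used here.

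Estimated counts were rounded, and 9788 circular RNA rows (1.44 to 2.24% of counts) were left out. Gene symbols were paired with 22818 of 23382 NCBI identifiers. Genes kept by filterByExpr were fitted by group with TMM normalization and robust glmQLFit in edgeR 4.0.16 (R 4.3.3), with Benjamini-Hochberg adjustment and a limit of 0.01. CPM values are TMM-normalized unless named library CPM. Ratios used FPKM + 0.1 and exact permutation tests over 252 arrangements, with a limit of 0.05 after adjustment over 3 ratios. On simulated counts of 12524 genes, the fit recovered 137 of 200 changed genes with 0 false calls, so real changes can be missed. Alternatives were DESeq2 1.42.0, limma 3.58.1 on log2(FPKM + 1), scaling, filters, row sets, a replicate block, gene length, leaving out each library, and, added after seeing the data, leaving out control replicate 5 and ox-LDL replicate 2 together.

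The members and lists were chosen with earlier results of these data known. All 10 members are named, from each list the called genes and up to 3 of the highest mean level among the rest, and, by Pearson's r of log2(CPM + 1), up to 3 genes most like a member (a further gene is not reported here). The samples are labelled biological replicates, and whether each came from a separate mouse is not stated, so p-values measure the spread between these samples. No libraries of the same group were duplicates. The closest pair, control replicates 2 and 3, had a chi-square per degree of freedom of 11.5, above the level of sampling noise alone. Pairs across the groups were not compared. Counts and FPKM cover counting error at these totals and not loss before sequencing.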

Additional observations from a re-analysis of the deposited data

Results flagged for a closer look

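A library stood far from its group in 7 of 26 groups of 5 libraries examined. This was measured as the gap to the nearest library divided by the group's range, against a limit of 0.71. For independent groups of normally distributed values about 1.3 would be flagged. Levels and ratios were not log-transformed and the groups share libraries, so 1.3 is a rough guide only. All 7 were the highest library of their group. Nlrp3 in control replicate 3 stood at 3.29 CPM, with the next control at 2.39. Nlrp1b in ox-LDL replicate 1 stood at 2.44 CPM, with the next at 0.670. Nlrc4 in ox-LDL replicate 5 stood at 17.0 CPM, with the next at 12.1. Mefv stood at 9.64 CPM in control replicate 5, with the next control at 2.01, and at 89.6 CPM in ox-LDL replicate 5, with the next at 27.4. Pycard in ox-LDL replicate 2 stood at 355 CPM, with the next at 72.6. Naip5 in ox-LDL replicate 1 stood at 43.4 CPM, with the next at 17.9.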

How the results depend on the processing

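Nlrp3 kept its direction and its call in all 20 alternatives run, and Aim2 stayed uncalled in its 20. The Naip2 to Naip5 log2 difference ran from 1.77 to 2.17 in its 12 alternatives. Scaling by library total alone moved the median of all genes by -0.19 on the log2 scale.

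On the log2 scale, DESeq2 gave Nlrp1b -2.52, Nlrc4 0.68 and Nek7 -0.47, all called, and no adjusted p for Pycard. Removing the length trend called Nlrp1b (-2.66), Nlrc4 (0.72) and Nek7 (-0.60). Nlrc4 was also called with at least 10 counts in every library (0.68) and with NCBI identifiers alone (0.69). Mefv lost its call with no filter (3.46, adjusted p = 0.0319), and Naip2 with library size alone (1.31) and with limma (1.11). Leaving out control replicate 5 and ox-LDL replicate 2 together called Pycard (-1.30). The Nlrp3 to Pycard ratio no longer passed 0.05 with CPM (3.21) or a pseudocount of 1 (2.27). Which properties of the data set these changes was not tested.

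Leaving out each library gave -3.71 to -2.16 for Nlrp1b, 0.57 to 0.73 for Nlrc4, 2.85 to 4.59 for Mefv, -1.25 to 0.026 for Pycard (0.026 without ox-LDL replicate 3 and 0.007 without ox-LDL replicate 4), -0.89 to -0.33 for Naip5, -1.36 to -1.06 for Txnip, 2.51 to 3.65 for the Nlrp3 to Pycard ratio and -0.061 (without ox-LDL replicate 3) to 0.66 for Aim2 to Pycard. Members called lower were 0 to 2, and members called higher 2 to 4.

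Members called lower were 3 with DESeq2, 3 with the length trend removed, 2 without the 2 doubted libraries, 2 at an adjusted p of 0.05 and 0 with an absolute log2 fold change above 2. All genes called higher were 704 with library size alone, 555 with limma, 1843 without the 2 libraries, 605 with the fold limit, 2045 at 0.05, and 826 to 1755 when each library was left out. All genes called lower were 1244 with DESeq2, 1225 with the length trend removed, 1483 without the 2 libraries, 244 with the fold limit, 1320 at 0.05, and 436 (without control replicate 4) to 1502 (without ox-LDL replicate 2).

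Effectors called higher were 5 at 0.05, and those called lower 0 with at least 10 counts. LPS-inducible genes called higher were 5 with no filter and 5 with at least 10 counts, a filter that leaves Nos2 and Il6 untested. Other sensors called lower were 0 with at least 10 counts and 0 with limma. Nlrp1a and Nlrp10, with means of 0.233 and 0.301 CPM in ox-LDL libraries, were too low to be tested with at least 10 counts in every library. Limma was run only on genes with at least 1 FPKM in at least 5 libraries. Nlrp1b was tested under neither setting. Partners of Txnip called higher were 1 with library size alone, 1 with limma, 0 with the fold limit and 1 to 2 when each library was left out, and those called lower 1 without the 2 libraries and 0 to 1 when each was left out. Regulators called lower were 0 with library size alone, 0 with limma, 0 with the fold limit and 0 to 3 when each library was left out.

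The labels give both groups the replicate numbers 1 to 5. Deviations of same-numbered libraries correlated at 0.029, -0.245, 0.424, -0.263 and 0.403, and replicate 5 alone matched its own number best, so the numbers were not taken to pair the samples. With a replicate block Txnip was not called (-1.14, adjusted p = 0.0356), members called lower were 0, partners of Txnip called higher were 1 and regulators called lower were 0. No other member's call changed under the block.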
